A study of Mus musculus with 6 samples.

Results

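Zinc transporters and metallothioneins, the genes that move zinc into and out of the cytosol and buffer it there, were examined in mouse prostate. They were chosen by symbol from the gene table, as 10 genes of zinc import, export and storage, and all 10 were found among 18697 genes. The prostates came from mice with experimental autoimmune prostatitis (EAP), in which an immune response to prostate antigens inflames the gland, so both groups carried the disease model. One group of 3 libraries came from mice given VUF11207, a compound that activates CXCR7, an atypical chemokine receptor encoded by Ackr3, by intraperitoneal injection at 5 mg per kg per day for 14 days, and the other 3 from mice given an equal amount of the solvent DMSO. Strain, sex and age of the mice and the immunisation were not given in the sources used here. Nor was it stated whether each library came from its own mouse, and p-values therefore measure only the spread between these samples, which may be technical. The table's columns tied 5 libraries to replicate numbers, and the remaining column, from a DMSO library, could not be tied to a replicate number of the labels and is called the unnumbered DMSO library. Its header carries a number of another kind, which the header of VUF11207 replicate 1 also carries.

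The prostate holds more zinc than most soft tissues. In its secretory epithelium, zinc taken up from blood limits the oxidation of citrate and is passed into the secretion. Transporters of the Slc39 (ZIP) family bring zinc into the cytosol from outside the cell or from organelles. Those of the Slc30 (ZnT) family move it the other way, out of the cell or into vesicles, and are called exporters here. Metallothioneins are small cysteine-rich proteins that bind zinc and copper, and their genes are switched on by the zinc-sensing transcription factor MTF1, and also by glucocorticoids.

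The metallothionein genes Mt1 and Mt2 lie side by side on chromosome 8 in mm10 (GENCODE M21), Mt2 from 94172664 to 94173568 and Mt1 from 94179082 to 94180327, both on the plus strand and 5513 bases apart. Their promoters are shown because the 6 libraries had the same order for both genes, and that of Slc30a1, also known as a target of MTF1, because its order differed from theirs. Each is the RefSeq window (GRCm38.p6) from 250 bases before to 50 bases after the RefSeq start, written 5′ to 3′ on the plus strand. Capitals mark every match, on either strand, to TGCGCNC or TGCACNC, the core letters of the metal response element that MTF1 binds. No matches overlapped in these 3 windows.
Mt1, chr8:94178839-94179138: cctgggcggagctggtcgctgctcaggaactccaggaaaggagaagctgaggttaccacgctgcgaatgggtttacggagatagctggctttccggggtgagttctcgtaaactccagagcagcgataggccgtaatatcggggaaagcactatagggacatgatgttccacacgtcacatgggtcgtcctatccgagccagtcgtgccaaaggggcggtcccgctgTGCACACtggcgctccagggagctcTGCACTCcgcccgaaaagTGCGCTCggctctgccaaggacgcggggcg
Mt2, chr8:94172368-94172667: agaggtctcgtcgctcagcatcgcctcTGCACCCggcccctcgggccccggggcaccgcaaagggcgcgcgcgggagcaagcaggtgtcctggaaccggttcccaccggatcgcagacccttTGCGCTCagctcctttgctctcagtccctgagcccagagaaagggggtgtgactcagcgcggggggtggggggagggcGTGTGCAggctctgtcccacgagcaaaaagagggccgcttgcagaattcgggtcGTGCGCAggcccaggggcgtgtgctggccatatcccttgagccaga
Slc30a1, chr1:191906531-191906830: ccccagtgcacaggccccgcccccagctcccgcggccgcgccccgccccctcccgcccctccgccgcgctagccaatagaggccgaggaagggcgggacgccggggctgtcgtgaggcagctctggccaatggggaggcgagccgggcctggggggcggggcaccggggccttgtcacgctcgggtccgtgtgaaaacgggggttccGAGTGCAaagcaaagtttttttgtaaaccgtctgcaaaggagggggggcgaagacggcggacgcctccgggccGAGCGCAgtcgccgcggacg

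Mt1 had 3 matches, Mt2 had 4 and Slc30a1 had 2. Of 32851 RefSeq windows of the same length, 25.7% held at least 1 match, 7.11% at least 2, 1.97% at least 3 and 0.517% at least 4. Windows were found for 9 of the 10 members. Slc30a4 had 3 matches and Slc30a2 had 2, Slc39a3 had 1, Slc39a8 had 1 in 1 of its windows, and Slc39a1 and Slc39a10 had 0. Some matches lie after the RefSeq start, from bases 3 and 21 in Mt1, 5 in Mt2 and 31 in Slc30a1. The Slc30a2 window and the Slc39a8 window with a match lie inside their GENCODE gene models, past the annotated start. A match is a description of these letters and does not show binding.

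All 10 members passed the low count filter, as did 13753 genes in all. No member differed between VUF11207 and DMSO by the test (edgeR's quasi-likelihood test, Benjamini-Hochberg adjusted p of 0.9999 for each member). Of all genes tested 0% passed at an adjusted p under 0.05 with edgeR or limma voom, and DESeq2 called 4 genes, none of them a member. Unadjusted, 0 members had an edgeR p under 0.05, against 1.43% of all genes. The members' median log2 fold change (VUF11207 minus DMSO) was -0.17, with 2 positive and 8 negative, beside a median of -0.04 and 44.7% positive over all genes tested. The 95% interval of the log2 fold change included 0 for each of the 10 members, and several varied widely between libraries of the same group.

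Levels are given as counts per 1000000 (CPM) after TMM normalisation, a scaling that sets most genes of the libraries level. Library totals ran from 20308018 to 33368058 counts. Seminal vesicle secretory genes took 63.3% of the counts in DMSO replicate 2 and 27.8% in VUF11207 replicate 1, 16.3% in DMSO replicate 3 and between 0.695% and 3.52% in the other 3. DMSO replicate 2 therefore had a TMM factor of 0.426, against 1.01 to 1.33 elsewhere. The luminal markers of the labelled tissue were present, since all 10 of the list (among them Pbsn, Tgm4 and Krt8) were detected and tested, and their summed level ran from 41713 to 78733 CPM with DMSO and from 83622 to 191730 CPM with VUF11207, without overlap. Sbp alone made up 66177 of the 83622 CPM in VUF11207 replicate 1. With the 10 genes weighted equally, the mean centred log2 level ran from -0.51 to -0.29 with DMSO and from -0.38 to 0.82 with VUF11207 and overlapped, and 5 of the 10 had a positive fold change. The part of these differences in the members' values was not tested. These are whole tissue samples, in which fewer cells of a type and less RNA per cell cannot be told apart.

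Mt1 had 2151 CPM in the unnumbered DMSO library, 266 in DMSO replicate 2 and 361 in DMSO replicate 3. In VUF11207 replicates 1, 2 and 3 it had 334, 1251 and 708 CPM. The values of other genes follow this order of libraries. The unnumbered DMSO library stood highest and VUF11207 replicate 2 next, and the groups overlapped. Means were 926 CPM ± 1062 with DMSO and 764 CPM ± 461 with VUF11207 (SD, n = 3 each). The log2 fold change was -0.28 ± 0.89 (SE), with a 95% interval from -2.40 to 1.85. Mt2 was at 1815, 152 and 255 CPM in the DMSO libraries and at 244, 916 and 597 CPM in the VUF11207 libraries, in the same orders. The 6 libraries ranked for Mt2 exactly as for Mt1, an order that 1.27% of the genes tested shared with Mt1. Its log2 fold change was -0.34 ± 0.98 (SE), with a 95% interval from -2.67 to 1.99. Between the highest and the lowest library Mt1 differed 8.07-fold and Mt2 11.9-fold, and scaled by library totals alone 25.3-fold and 37.4-fold.

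**Figure D1:**
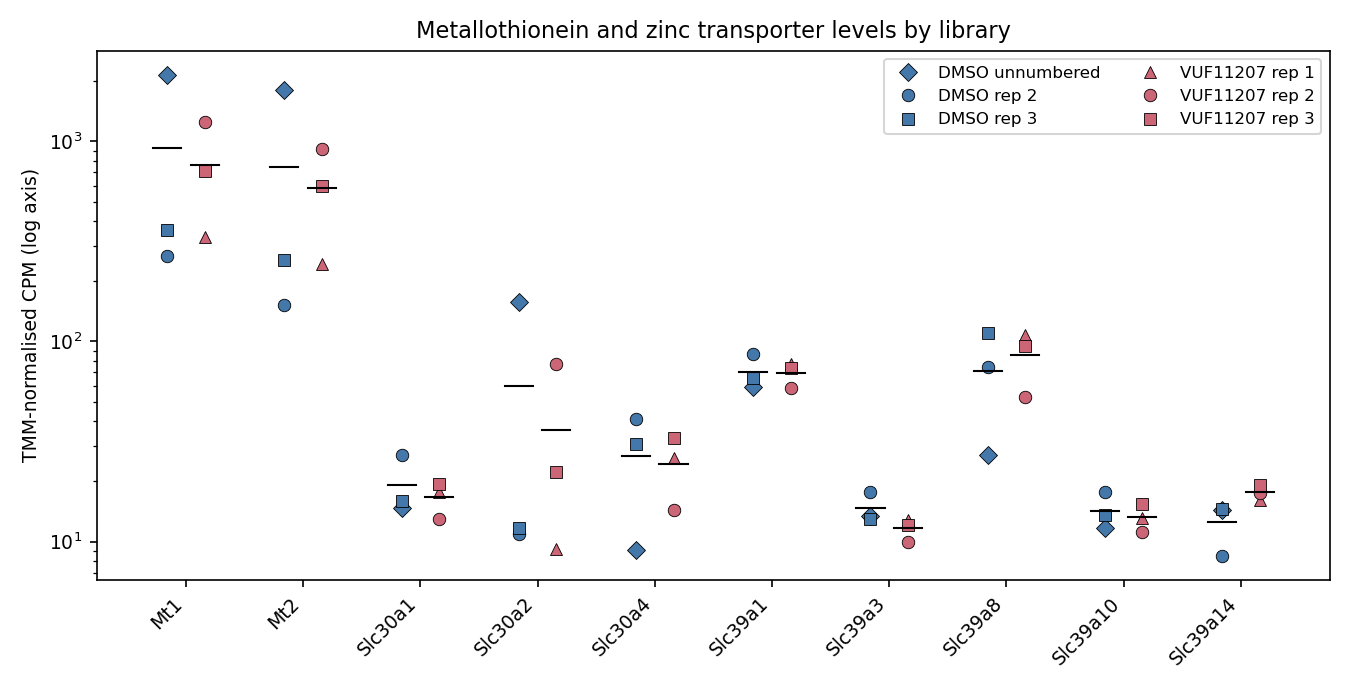
TMM-normalised CPM (log axis) of the 10 members in each library, blue for DMSO and red for VUF11207, with marker shapes for the libraries and a short line at each group's arithmetic mean. Mt1, Mt2 and Slc30a2 were highest in the unnumbered DMSO library, at 2151, 1815 and 157 CPM, where Slc30a4 and Slc39a8 were at their lowest, at 9.10 and 27.2 CPM.

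As a share of all counts, Mt1 and Mt2 together took 0.528% in the unnumbered DMSO library (Wilson 95% interval 0.525% to 0.531%), 0.270% in VUF11207 replicate 2 and 0.149% in VUF11207 replicate 3. They took 0.0758% in DMSO replicate 3, 0.0583% in VUF11207 replicate 1 and 0.0178% in DMSO replicate 2 (0.0174% to 0.0183%). Reads carried no stated molecular identifiers, so these intervals cover counting error only. The ratio of Mt1 to Mt2 counts, which does not depend on the scaling, stayed between 1.18 and 1.75, with Mt1 ahead in 6 of 6 libraries. It was 1.18 in the unnumbered DMSO library, 1.75 and 1.41 in DMSO replicates 2 and 3 and 1.37, 1.36 and 1.19 in the VUF11207 libraries. The log2 ratio differed between the groups by -0.13 (VUF11207 minus DMSO; exact permutation test, two-sided, p = 0.5, where 3 against 3 cannot go below 0.1), and the value was 0.0120 without DMSO replicate 2. The paralogs are similar in sequence and the treatment of reads matching several genes is unknown, which leaves the division of reads between them uncertain. An antisense gene model, Gm45774, overlaps Mt2, and no strand setting is given.

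Mt3, a further metallothionein best known from brain, was at 337, 6.69 and 10.5 CPM in the DMSO libraries and 6.62, 159 and 24.2 CPM in the VUF11207 libraries, a 51.0-fold spread. It was high in the same libraries as Mt1 and Mt2. Its log2 fold change was -0.90 ± 1.68 (SE). Mtf1, which encodes the zinc sensor, lay within 10.7 to 14.1 CPM in all 6 libraries, with a log2 fold change of 0.13 ± 0.21 (SE). None of these passed the edgeR test.

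Of the exporters, Slc30a2 (ZnT2), which loads zinc into vesicles and is known for zinc secretion into milk, had the pattern of the metallothioneins. It was at 157, 10.9 and 11.7 CPM with DMSO and at 9.16, 76.8 and 22.2 CPM with VUF11207. The unnumbered DMSO library and VUF11207 replicate 2 stood above the other 4 libraries, 1 from each group. The log2 fold change was -0.73 ± 1.22 (SE), with a 95% interval from -3.67 to 2.20. Its spread within groups, an SD of 1.89 on the log2 CPM scale, was larger than that of 96.4% of the genes tested. The corresponding share was 91.4% for Mt1 and 93.4% for Mt2.

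Slc30a4 (ZnT4), which moves zinc into endosomes and other vesicles, differed from Slc30a2 in its extremes. It was at 9.10, 40.8 and 30.6 CPM in the DMSO libraries and at 26.1, 14.4 and 32.8 CPM in the VUF11207 libraries. Its lowest libraries were thus the unnumbered DMSO library and VUF11207 replicate 2, where Slc30a2 was highest. VUF11207 replicate 3 was among the 3 highest libraries for both genes. The counts of Slc30a2 relative to Slc30a4 were 17.3 and 5.34 in these libraries and 0.268 to 0.678 in the other 4, a ratio chosen after its values were seen. The log2 fold change of Slc30a4 was -0.13 ± 0.56 (SE).

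Slc30a1 (ZnT1), the exporter of the plasma membrane, varied less than Slc30a2 and Slc30a4. It was at 14.6, 27.0 and 16.0 CPM with DMSO and at 17.6, 13.0 and 19.4 CPM with VUF11207, with overlapping groups and a log2 fold change of -0.20 ± 0.30 (SE). From the lowest to the highest library it differed 2.07-fold, against 11.9-fold for Mt2. The spread of Slc30a1 within groups, an SD of 0.396 on the log2 CPM scale, was larger than that of 44.9% of the genes tested. Mt2 had 124 counts for each count of Slc30a1 in the unnumbered DMSO library and 5.64 in DMSO replicate 2. An antisense model, 1700034H15Rik, overlaps Slc30a1.

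Of the importers, Slc39a8 (ZIP8), which carries zinc, manganese and cadmium, varied most on the TMM scale. With library totals alone Slc39a14 varied more, 6.03-fold against 4.27-fold. Slc39a8 was at 27.2, 75.0 and 111 CPM in the DMSO libraries and at 108, 53.0 and 94.8 CPM in the VUF11207 libraries. Like Slc30a4 it was lowest in the unnumbered DMSO library and in VUF11207 replicate 2, and its groups overlapped. Means were 71.0 CPM ± 41.9 and 85.3 CPM ± 28.8 (SD, n = 3 each), and the log2 fold change was 0.27 ± 0.52 (SE). Skeletal muscle markers were also most abundant in DMSO replicate 3 and VUF11207 replicate 1 (mean centred log2 level 3.55 and 3.59, against -3.73 to 0.193 elsewhere), and their part in the order of Slc39a8 was not tested.

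Slc39a1 (ZIP1) is a ubiquitous importer at the plasma membrane, known for zinc uptake by prostate cells. On the TMM scale it had the narrowest range of all members from the lowest to the highest library. Scaled by library totals alone its range was 2.27-fold, and that of Slc30a1 was narrower at 1.92-fold. Slc39a1 was at 59.0, 87.0 and 66.0 CPM with DMSO and at 77.3, 58.6 and 73.8 CPM with VUF11207, a 1.48-fold range. Means were 70.6 CPM ± 14.6 and 69.9 CPM ± 9.91 (SD, n = 3 each), and the log2 fold change of -0.01 ± 0.22 (SE) had a 95% interval from -0.55 to 0.52. Slc39a10 (ZIP10), a further importer of the plasma membrane, lay between 11.2 and 17.6 CPM and had a log2 fold change of -0.11 ± 0.25 (SE). The groups overlapped for both.

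Slc39a14 and Slc39a3 were the 2 of 10 members whose groups did not overlap, against 5.57% of all genes tested. Slc39a14 (ZIP14), which carries zinc, manganese and iron and is known to be induced by interleukin-6 in liver, was at 14.3, 8.52 and 14.6 CPM with DMSO and at 16.2, 17.4 and 19.2 CPM with VUF11207. All VUF11207 libraries stood above all DMSO libraries, by a narrow margin of 14.6 to 16.2 CPM. Means were 12.5 CPM ± 3.43 and 17.6 CPM ± 1.5 (SD, n = 3 each). The log2 fold change of 0.49 ± 0.26 (SE), a 1.41-fold difference, had a 95% interval from -0.13 to 1.12 and the smallest edgeR p of the members, 0.104 unadjusted. Without DMSO replicate 2 it was 0.29.

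Slc39a3 (ZIP3), an importer of the plasma membrane, was at 13.5, 17.7 and 12.9 CPM with DMSO and at 12.8, 9.99 and 12.1 CPM with VUF11207. The groups were separated by less than 0.1 CPM, between DMSO replicate 3 and VUF11207 replicate 1. The log2 fold change was -0.33 ± 0.23 (SE), with a 95% interval from -0.88 to 0.21, and -0.17 without DMSO replicate 2. With library totals alone, 0 members had groups without overlap, and Slc39a3 was at -0.07. The ratio of Slc39a14 to Slc39a3 counts, chosen after its values were seen and free of scaling, was 1.06, 0.482 and 1.13 in the DMSO libraries and 1.26, 1.74 and 1.58 in the VUF11207 libraries. Among markers of other cell types, the neutrophil list was also separated by group, with 3 of 6 markers tested and summed levels of 3.88 to 14.1 CPM with DMSO and 0.473 to 2.65 CPM with VUF11207. S100a8 and S100a9 were separated, with only 6 to 13 and 1 to 29 counts with VUF11207. Csf3r overlapped, at 0.211 to 1.77 CPM with DMSO and 0.237 to 1.24 CPM with VUF11207. Ly6g had 0 counts in each library. Of the luminal markers, Msmb ran from 40.6 to 361 CPM with DMSO and from 471 to 2984 CPM with VUF11207, and Hoxb13 from 182 to 378 and from 384 to 804 CPM. Their part in the values of Slc39a14 and Slc39a3 was not tested.

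Levels of different genes were compared per kilobase of merged exons. Mt2 came first, at a mean of 1128 CPM per kb over the 6 libraries, and Mt1 next, at 678, and Mt2 was above Mt1 on this scale in 6 of 6 libraries. Slc39a1 followed at 29.7 CPM per kb, with a range from 24.8 to 36.8 that lay below every library of both metallothioneins. Slc30a2 had a mean of 13.5 but ranged from 2.57 to 44.1, and spanned the range of Slc39a1, which it exceeded in the unnumbered DMSO library (44.1 against 24.9). It could not be separated from Slc39a8 at a mean of 10.2 (3.55 to 14.4) or Slc30a4 at 4.67 (1.66 to 7.44). Slc30a1 at 3.42, Slc39a3 at 3.28 and Slc39a10 at 2.26 CPM per kb had overlapping ranges. Slc39a14 was lowest, at 1.43 (0.808 to 1.82), and was last in every library. Division by length put Mt2 above Mt1, which had more counts in 6 of 6 libraries and merged exons of 1.246 kb against 0.588 kb. The merged exons of Mt1 fill its whole gene model, from 94179082 to 94180327, and its longest coding transcript is 1.085 kb against 0.511 kb for Mt2. The order of Mt2 and Mt1 per kilobase therefore depends on these annotated lengths. Between merged exons and the longest coding transcript the order changed only below the first 3 places. Over the longest coding transcript Slc39a8 was at 22.1 and passed Slc30a2 at 15.2, and Slc39a14 at 3.05 passed Slc39a10 at 2.50, while Mt2, Mt1 and Slc39a1 kept the first 3 places.

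**Figure D2:**
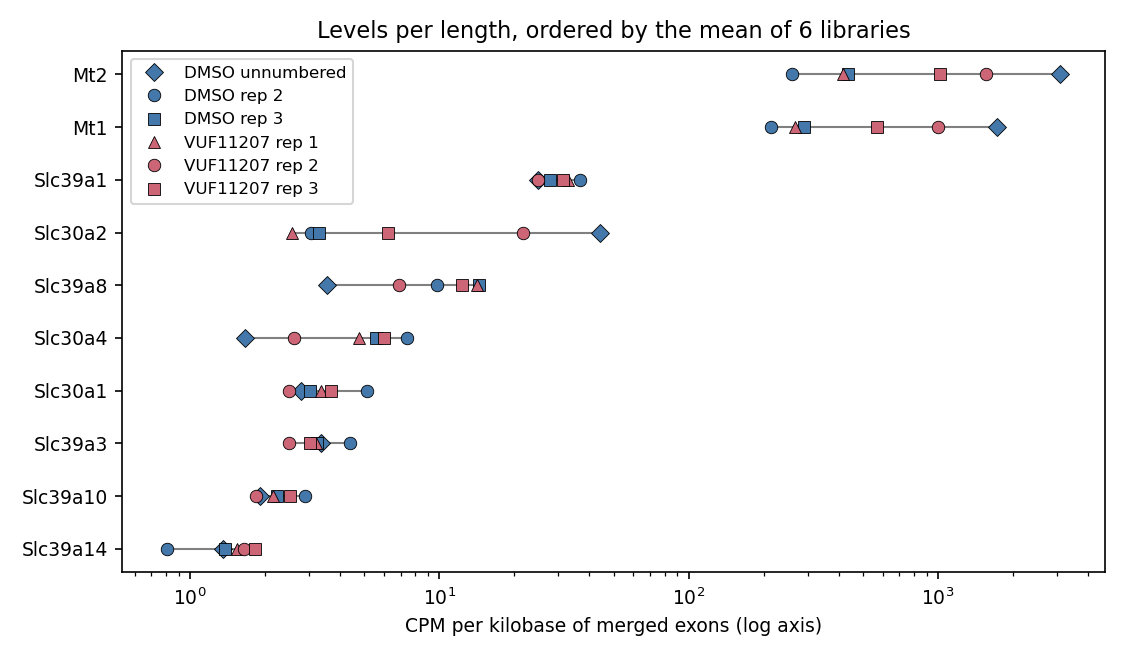
CPM per kilobase of merged exons (log axis) of each member in each library, ordered by the mean of 6 libraries, with a grey line from the lowest to the highest library. Mt2 and Mt1 lie above all transporters in every library, Slc39a1 spans 24.8 to 36.8 CPM per kb, and Slc30a2 spans 2.57 to 44.1.

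Summed over the 3 exporters, the level was 48.5 CPM per kb in the unnumbered DMSO library and 26.7 in VUF11207 replicate 2, and between 10.7 and 15.9 in the other 4. Slc30a2 made up 90.8% and 80.8% of that sum in the first pair and 19.6% to 39.2% elsewhere. The 5 importers summed to 35.1 and 37.7 CPM per kb in that pair and to between 49.2 and 54.7 elsewhere. The sum of these exporters exceeded that of these importers in the unnumbered DMSO library alone. Neither sum held the families' other genes, such as the importer Slc39a7 at 211 CPM and the exporter Slc30a5 at 58.5 CPM in that library. The log2 ratio of the sums was -1.13 ± 1.39 with DMSO and -1.50 ± 0.93 with VUF11207 (SD, n = 3 each; exact permutation test, two-sided, p = 0.7). The difference was -0.37, and 0.42 without the unnumbered DMSO library.

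Over the 6 libraries, on the TMM scale, a set of 3 members was highest in the unnumbered DMSO library and VUF11207 replicate 2 (Mt1, Mt2 and Slc30a2). A set of 5 was lowest there (Slc30a1, Slc30a4, Slc39a1, Slc39a8 and Slc39a10). With library totals alone, Slc30a1, Slc39a1, Slc39a8 and Slc39a10 were lowest in DMSO replicate 2. Of 45 pairs of members tested on log2 CPM, 5 had an adjusted p under 0.05 for Pearson's r by exact permutation of the pairings. Mt1 and Mt2 had r = 0.994 (exact permutation p = 0.00139, the smallest that 720 pairings can give, adjusted p = 0.0375) and Spearman's rho = 1 (exact permutation p = 0.00278, adjusted p = 0.107), and r was 0.992 without the 2 libraries farthest from the median. Mt1 and Slc30a2 had r = 0.981 and rho = 0.943, and r was 0.918 without those 2 libraries. Mt2 and Slc30a2 had r = 0.955 and rho = 0.943, and r was 0.955 without the 2 libraries farthest from the Mt2 median. The libraries form separate clusters for Slc30a2, and its pooled r covers mainly the distance between them. The r of 0.918 with Mt1 was taken without the higher cluster, the unnumbered DMSO library and VUF11207 replicate 2.

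Slc30a1 had r = 0.938 with Slc39a1 and r = 0.960 with Slc39a10, both with rho = 0.943, and r was 0.883 and 0.880 without the 2 libraries farthest from the Slc30a1 median. For the 4 pairs other than Mt1 with Mt2 the exact permutation p of r was 0.00417 (adjusted p = 0.0375) and that of rho 0.0167 (adjusted p = 0.107). Slc30a1, Slc30a4, Slc39a1, Slc39a3 and Slc39a10 all had their highest TMM value in DMSO replicate 2, the library with the lowest TMM factor. Scaled by library totals alone, 9 of 10 members were lowest in that library, and the pair of Slc30a1 and Slc39a10 no longer passed. Slc30a2 with Slc30a4 (r = -0.92) and with Slc39a8 (r = -0.92) did not pass, and rested on the unnumbered DMSO library and VUF11207 replicate 2, without which r was 0.22 and -0.0995.

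**Figure D3:**
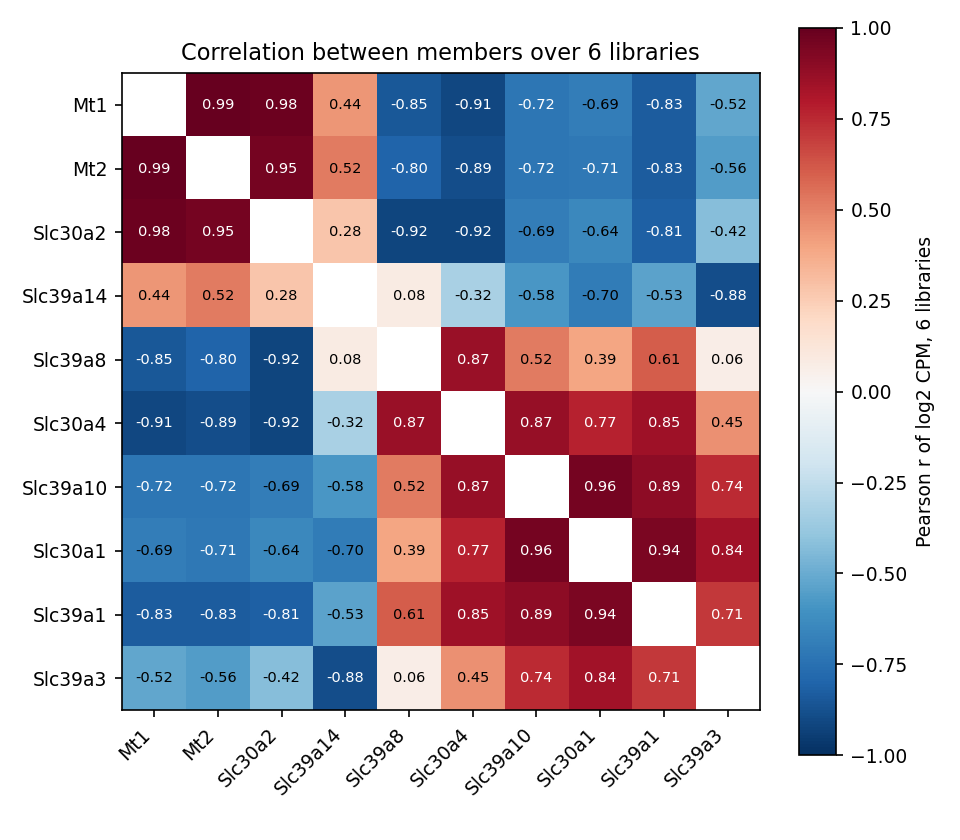
Pearson r of log2 CPM over the 6 libraries for each pair of members, from blue (negative) to red (positive). Mt1, Mt2 and Slc30a2 form a positive block with r between 0.955 and 0.994, and each has a negative r with every other member except Slc39a14.

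The genes most like each member over the 6 libraries were taken from 8649 other genes whose log2 CPM averaged 3 or more. For Mt1 these were Dbt (r = 0.9985) and Tmem97 (r = 0.998), and for Mt2 Gtf3c6 (r = 0.9955) is named. For Slc30a2 they were Fcgbp (r = 0.999), which encodes a mucin-like secreted protein, and Chn2 (r = 0.999). For Slc30a4 Uvrag (r = 0.993) is named, and for Slc30a1 they were Ppp1r21 (r = 0.993) and G6pc3 (r = 0.992). For the importers they were Atp5g1 and Chmp7 (Slc39a1, r = 0.994 and 0.993), Esyt3 and Mocs2 (Slc39a3, 0.9865 and 0.985), Ptpn1 and Usp6nl (Slc39a8, 0.995 and 0.994), Rnf215 and Mfsd11 (Slc39a10, 0.993 and 0.990) and Slc29a1 and Acat1 (Slc39a14, 0.997 and 0.986). With 6 libraries high values are common: 461 of the genes searched had r above 0.9 with Mt1, and 82 with Slc39a14. These values share the libraries and their scaling and are given as a description.

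Luminal markers, of which those named were chosen after their values were seen, followed Mt1 and Mt2 unevenly. Pbsn, the secretory protein probasin, was at 17682, 681 and 769 CPM with DMSO and 623, 6734 and 2650 CPM with VUF11207, and Tgm4, the prostate transglutaminase, at 16890, 828 and 954 and at 624, 8512 and 1645 CPM. Both were highest in the 2 libraries richest in Mt1. Sbp, the spermine-binding protein of the secretion, went the other way in the unnumbered DMSO library, at 3707 CPM against 50346 to 143090 CPM in the other 5. The keratins Krt8 and Krt18 of luminal cells varied less, from 219 to 396 CPM and from 542 to 726 CPM. The part that these differences in tissue content had in the levels of the members was not tested.

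Across 140 pairs of a member and a marker list, 0 passed at an adjusted p under 0.05 by exact permutation of the pairings. The highest absolute r was that of Slc30a4 with urothelium markers (r = 0.972, rho = 0.943, exact permutation adjusted p = 0.146 and 0.233). The smallest exact permutation p belonged to Slc39a10 with fibroblast markers (r = -0.961, rho = -1) and Slc39a1 with seminal vesicle genes (r = 0.951, rho = 1). Both had an adjusted p of 0.0972 for r and 0.194 for rho by exact permutation. Without the 2 libraries farthest from the median of the list, r was 0.904 for Slc30a4, -0.937 for Slc39a10 and 0.926 for Slc39a1. By r, the list with the strongest relation was basal epithelium for Mt1 (r = -0.91, rho = -0.83), Mt2 (r = -0.87, rho = -0.83) and Slc30a2 (r = -0.94, rho = -0.89), each with an adjusted p of 0.176 for r from exact permutation and 0.263, 0.263 and 0.233 for rho. Without the 2 libraries farthest from the median basal level, r was -0.45, -0.43 and -0.51, so these relations rest on those libraries. The seminal vesicle list had rho = -0.886 with Mt1 and with Mt2 (exact permutation adjusted p = 0.233), and its r of -0.84 and -0.86 was -0.83 and -0.78 without DMSO replicate 2 and VUF11207 replicate 1. For Slc39a14 the strongest list by r was the fibroblast list (r = 0.73, rho = 0.26, exact permutation adjusted p = 0.284 and 0.823), and r was -0.60 without DMSO replicate 2 and VUF11207 replicate 2. By rho it was the neutrophil list (rho = -0.886, r = -0.55, exact permutation adjusted p = 0.233 and 0.444), the list that was also separated by group. T cell markers were highest in the unnumbered DMSO library and VUF11207 replicate 2 too, at levels of 1.12 and 0.661 against -0.733 to 0.0164 elsewhere, with summed levels of 5.56 to 17.5 CPM with DMSO and 5.64 to 17.6 CPM with VUF11207. Smooth muscle markers were at 0.904 and 1.26 there and at most at 0.187 elsewhere.

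**Figure D4:**
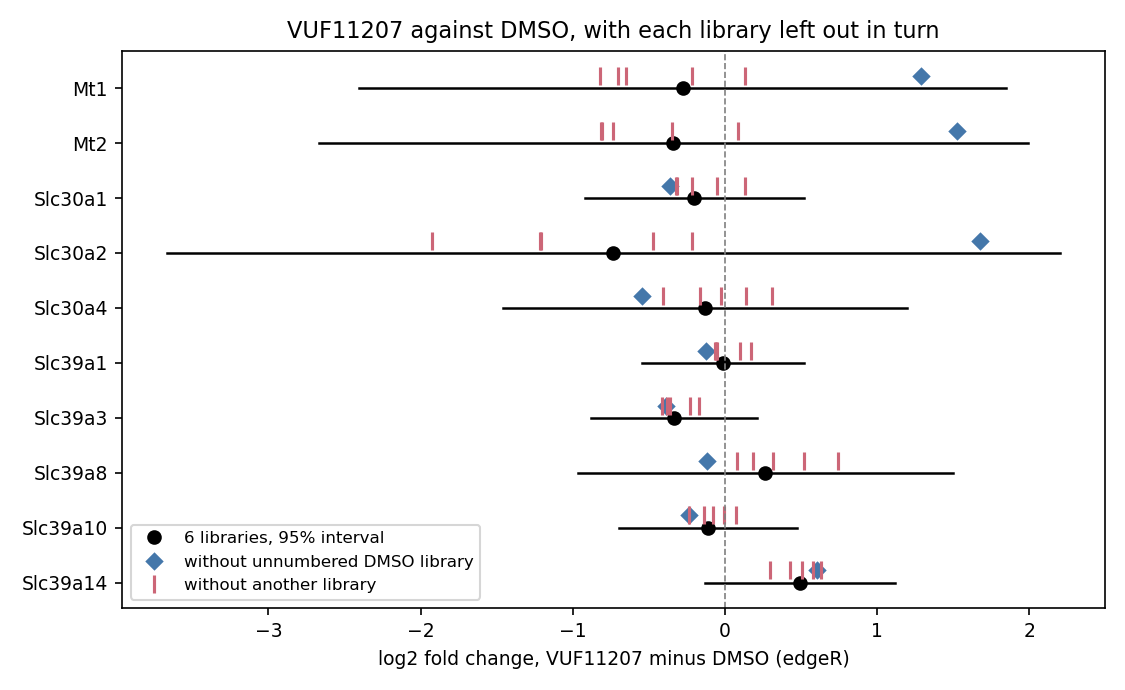
Log2 fold change of each member (VUF11207 minus DMSO, edgeR) over 6 libraries as black points with 95% intervals, and with each library left out in turn as coloured marks. All intervals cross 0, and without the unnumbered DMSO library Mt1, Mt2 and Slc30a2 move from -0.28, -0.34 and -0.73 to 1.29, 1.53 and 1.67.

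The direction of the 3 most variable members changed with the libraries and the fit. Without the unnumbered DMSO library the log2 fold change was 1.29 for Mt1, 1.53 for Mt2 and 1.67 for Slc30a2, and that of Slc39a8 turned to -0.12. Each still had an adjusted edgeR p of 0.9999, and the unadjusted p of Mt2 was 0.0438. Mt1 and Mt2 were also positive without VUF11207 replicate 1 (0.13 and 0.0857), and over all 6 libraries with limma voom (0.24 and 0.40). Leaving out both DMSO replicate 2 and VUF11207 replicate 1, the libraries richest in seminal vesicle counts, turned Slc30a1, Slc30a4, Slc39a1 and Slc39a10 to values of 0.0942 to 0.26, and Slc39a14 was then at 0.36 and Slc39a3 at -0.23.

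The other members of the 2 transporter families were also without a call. Of 7 further Slc30 genes 5 were tested, 2 positive and 3 negative, with a median log2 fold change of -0.07. Slc30a10, known as a manganese exporter, was at 0.518, 0.704 and 1.61 CPM with DMSO and 1.96, 2.98 and 7.06 CPM with VUF11207, without overlap, and had a log2 fold change of 2.06 ± 0.71 (SE) with an edgeR p of 0.0235 unadjusted and 0.9999 adjusted. Slc30a6, a transporter of the Golgi, was at -0.31 ± 0.24 (SE). Of 9 further Slc39 genes 6 were tested, 2 positive and 4 negative, with a median of -0.05. Slc39a13 (ZIP13), known for its role in connective tissue, was at 16.6, 19.4 and 16.7 CPM with DMSO and 15.8, 11.9 and 12.3 CPM with VUF11207, a log2 fold change of -0.39 ± 0.21 (SE). Slc39a6 was at 0.58 ± 0.43 (SE). Slc39a5 had 0 counts in each library.

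Genes of iron, copper and manganese handling had 11 of 12 tested, 2 positive and 9 negative, with a median log2 fold change of -0.17. Ftl1, the ferritin light chain, was at -0.67 ± 0.37 and Slc11a2, an iron importer, at -0.70 ± 0.62 (SE). Glucocorticoid-responsive genes had 3 of 7 positive and a median of -0.07. Dusp1, a phosphatase of MAP kinases, was at -0.45 ± 0.23 and the transcription factor Klf9 at 0.33 ± 0.19 (SE). Fkbp5 of that list was lowest in the unnumbered DMSO library, where the metallothioneins were highest, at 27.4 CPM against 132 to 256 CPM elsewhere. Tsc22d3 of the same list was also lowest there, at 38.1 CPM against 91.4 to 192 CPM. Per1 was highest there, at 31.7 CPM against 16.4 to 22.1 CPM, and the other genes of the list were neither lowest nor highest in that library. Fkbp5, Tsc22d3 and Per1 were chosen after their values were seen. Acute phase and STAT3-responsive genes had 0 of 7 positive and a median of -0.45, with Hp, haptoglobin, at -2.24 ± 1.2 and Orm1, an acute phase glycoprotein, at -2.08 ± 1.77 (SE). Hp was at 14.9 CPM in the unnumbered DMSO library and at 0.574 to 1.94 CPM elsewhere. Orm1 had only 31, 101 and 1 counts in the DMSO libraries and 28, 0 and 29 in the VUF11207 libraries. Genes of citrate metabolism had 4 of 7 positive and a median of 0.07, with the aconitase Aco1 at 0.28 ± 0.26 and the citrate carrier Slc25a1 at 0.21 ± 0.21 (SE). Of these lists 0 genes passed the edgeR test in either direction, beside the median of -0.04 over all genes.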

How the data were processed

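RNA sequencing of prostates was available for 3 DMSO and 3 VUF11207 libraries. Per the labels' protocols, TRIzol was used for extraction and a VAHTS Universal V6 kit for the libraries. Per the submitters' processing notes, the tools were fastp, HISAT2 and HTSeq, with the build mm10. The annotation, the strand setting and how reads matching several genes were treated were unstated there. The authors deposited whole-number read counts per gene symbol, without normalisation, and the 5 files of single libraries were identical to their columns of the table.

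Counts were normalised by TMM, filtered with filterByExpr and tested with edgeR 4.0.16 (R 4.3.3; quasi-likelihood, robust, two-sided, Benjamini-Hochberg over 13753 genes, threshold 0.05). SE and 95% intervals were derived from the fold change and F statistic. Log2 CPM used a prior count of 2. Lengths and positions came from GENCODE M21, promoter windows from RefSeq.

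Genes named were the members, the 2 genes of each related list with the smallest p and the 2 genes most alike each member. Some genes that this rule picks are not reported here. Marker genes, Fkbp5, Tsc22d3, Per1, Slc30a5, Slc39a5 and Slc39a7 were named outside the rule, after their values were seen. The members, lists and marker lists were chosen with earlier results of these data known, so no p was adjusted over a list alone. Alternatives were DESeq2 1.42.0, limma 3.58.1 (voom), other scaling and filters, a block for the replicate number, a seminal vesicle covariate and leaving out libraries.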

Additional observations from a re-analysis of the deposited data

How the results depend on the processing

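Under 19 alternative fits, 0 of 190 member values passed an adjusted p under 0.05, and 149 kept the sign of the reported value. Over all genes, DESeq2 called 4 and scaling by library totals alone called 3, against 0 in the reported fit and in the other alternatives, and the cause was not tested. Slc39a14 was positive (0.29 without DMSO replicate 2 to 0.72) and Slc39a3 negative (-0.45 to -0.07) in every fit. Members without overlap between groups were 0 with library totals alone and 1 (Slc39a14) without the 50 most abundant genes. With each library left out they were 2, a count that could hardly fall, since removal alone cannot make separated groups overlap.

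Log2 fold changes (VUF11207 minus DMSO) turned as follows. With library totals alone Slc30a1 was 0.15, Slc30a4 0.28, Slc39a1 0.26 and Slc39a10 0.17. This scaling put the median of all genes at 0.145, against -0.0406. With limma voom Mt1 was 0.24, Mt2 0.40 and Slc30a4 0.11, and with sample weights Mt1 was 0.68, Mt2 0.92 and Slc30a2 0.38. With the seminal vesicle covariate Slc30a4 was 0.14 and Slc39a1 0.0555, and without the 50 most abundant genes Slc39a1 was 0.0149. Without the 2 libraries richest in seminal vesicle counts Slc30a1 was 0.11, Slc30a4 0.26, Slc39a1 0.11 and Slc39a10 0.0942. The causes were not tested.

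With 1 library left out in turn, values ran from -0.82 to 1.29 for Mt1, from -0.81 to 1.53 for Mt2, from -0.36 to 0.13 for Slc30a1, from -1.93 to 1.67 for Slc30a2 and from -0.54 to 0.31 for Slc30a4. They ran from -0.13 to 0.17 for Slc39a1, from -0.24 to 0.0744 for Slc39a10 and from -0.12 to 0.74 for Slc39a8. The difference in the log2 ratio of Mt1 to Mt2 ran from -0.27 to 0.0120 and that of exporters to importers from -0.88 to 0.42.

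Of the replicate numbers in the labels, 2 and 3 could be tied to columns in both groups, and they were not shown to pair libraries: the difference between replicates 2 and 3 had r = 0.0628 between the groups across 13753 genes, which are not independent replicates. With the replicate block on these 4 libraries Mt1 was 1.61, Mt2 1.92, Slc30a2 1.88 and Slc39a8 -0.35, and without the block 1.65, 1.90, 2.14 and -0.32. The block left the calls at 0 genes. These fits, chosen in part after seeing the data, leave out the unnumbered DMSO library and VUF11207 replicate 1. The column headers carry other numbers, shared by both groups in all 6 libraries, and deviations from the group means in same-numbered libraries had r = -0.593, -0.332 and 0.0525 across genes, so they were not shown to pair libraries either. A replicate block by these numbers, added after seeing the data, called 0 genes and gave 0.35 for Mt1, 0.56 for Mt2, 0.30 for Slc30a2 and 0.0427 for Slc30a4.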
